A study of Culex quinquefasciatus with 20 samples.

Results

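The comparison described here is that of *Cx. quinquefasciatus* females knocked down by malathion with unexposed females, both of field origin. It rests on 10 of the 20 libraries of the series, namely the 5 libraries of the malathion susceptible (MS) group and the 5 libraries of the wild (WI) group, chosen by their sample labels. MS females were 3-day-old field females held in bottles coated with 400 µg of malathion for 120 min, collected at the end of that exposure, when the labels call them knocked down and the study's methods call them dead. WI females were reared from field-collected eggs, were taken 3 days after emergence without any contact with the insecticide and were knocked down by cold before storage. Both groups are labelled wild type, with pools of 10 whole females, less 1 leg each, behind every library. The other libraries came from field females alive a day after the same exposure (MR, 5 libraries) and from the unexposed Sebring laboratory colony (CO, 5 libraries). They entered the low-count filter, the scaling and the estimate of the spread, and some of their levels are given for description. The study's methods describe the exposed females as additional mosquitoes captured in the field, so collection or rearing may also have differed from WI. Insecticide, collapse or death, possible loss of RNA and handling before storage all differed between MS and WI females. The parts of all these in any difference below cannot be told apart, and nothing here bears on resistance.

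Malathion is an organophosphate that cytochrome P450s convert to malaoxon, an inhibitor of acetylcholinesterase, the enzyme that ends the signal of acetylcholine at insect synapses. Females lose posture, fall and die as the transmitter persists. Carboxylesterases split malathion before or after this activation, glutathione S-transferases (GSTs) conjugate organophosphates and products of oxidation, and P450s both activate and break down the compound. A transcript level in a whole body joins all tissues, and in such samples fewer cells of a type and less RNA per cell cannot be told apart.

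Total counts on genes ranged from 144519147 to 186647728 in MS (median 168158417) and from 154239309 to 184564593 in WI (median 171187131), and 16195 to 17327 genes had at least 1 count in an MS library against 16285 to 17769 in a WI library. Across genes, log2 levels correlated at 0.935 to 0.967 among MS libraries, 0.926 to 0.960 among WI libraries and 0.880 to 0.918 between the groups. The pair of most counted genes, CPIJ040092 and CPIJ016836, both without a name in the annotation used, took 25.2% ± 8.37 of the counts in MS and 16.2% ± 4.97 in WI (SD, n = 5 each), a difference that did not pass an exact two-sided permutation test (p = 0.0714). Factors of the trimmed mean of M-values (TMM), which correct for such shifts in make-up, were 0.563 to 1.08 in MS and 0.807 to 1.34 in WI (exact two-sided permutation test, p = 0.0635). MS replicate 1 stood apart from the other MS libraries, with the factor of 1.08 against 0.563 to 0.704. WI replicate 2 had the highest share of the 2 most counted genes in its group, 23.1% against 10.9% to 17.7%. Replicate 2 was also highest in MS (32.7%) and CO (13.4%) but not in MR (17.7%). Replicate 1 had the lowest share in each group, at 11.5% in MS, 10.9% in WI, 13.7% in MR and 4.51% in CO.

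Genes were compared in edgeR with TMM and are called differentially expressed genes (DEGs) at a false discovery rate (FDR) under 0.05. Levels are given in CPM, the counts of a gene scaled to a common library total after TMM, and a positive log2 fold change means a higher level in MS. Of 17499 genes tested, 2153 (12.3%) were up-regulated and 1927 (11%) were down-regulated in MS females compared to WI females, together 4080 genes or 23.3%. Among the DEGs, 1493 rose and 1342 fell at least 2-fold, 594 rose and 440 fell at least 4-fold, and 198 rose and 120 fell at least 16-fold. The libraries of both groups did not overlap for 3717 genes (21.2% of those tested), with all MS libraries above all WI libraries for 2010 genes (11.5%) and below them for 1707 genes (9.75%). Up-regulated genes held 34.4% ± 3.79 of all counts in MS and 10.8% ± 1.43 in WI, and down-regulated genes 7.17% ± 1.33 in MS and 24.7% ± 2.15 in WI (SD, n = 5 each), values that follow from how the genes were called.

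The split between the directions depended on the scaling. Replacing TMM by library size alone gave 892 up-regulated genes, 19.2% of the DEGs instead of 52.8%, and 3752 down-regulated genes. It also shifted the median over all 17499 genes to a log2 fold change of -0.58, where TMM gave -0.07. The changes below are therefore relative to the TMM scale, and a change in a gene of less than about this shift has no settled sign. Without MS replicate 1 and WI replicate 2, an alternative added after the data were seen, 1847 genes were up-regulated and 1610 down-regulated. DEGs were more frequent among genes of higher level, from 3.47% up-regulated and 4.34% down-regulated of genes with a mean under 1 CPM over the 10 libraries to 26.3% and 19.9% of genes with 100 CPM or more.

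**Figure D1:**
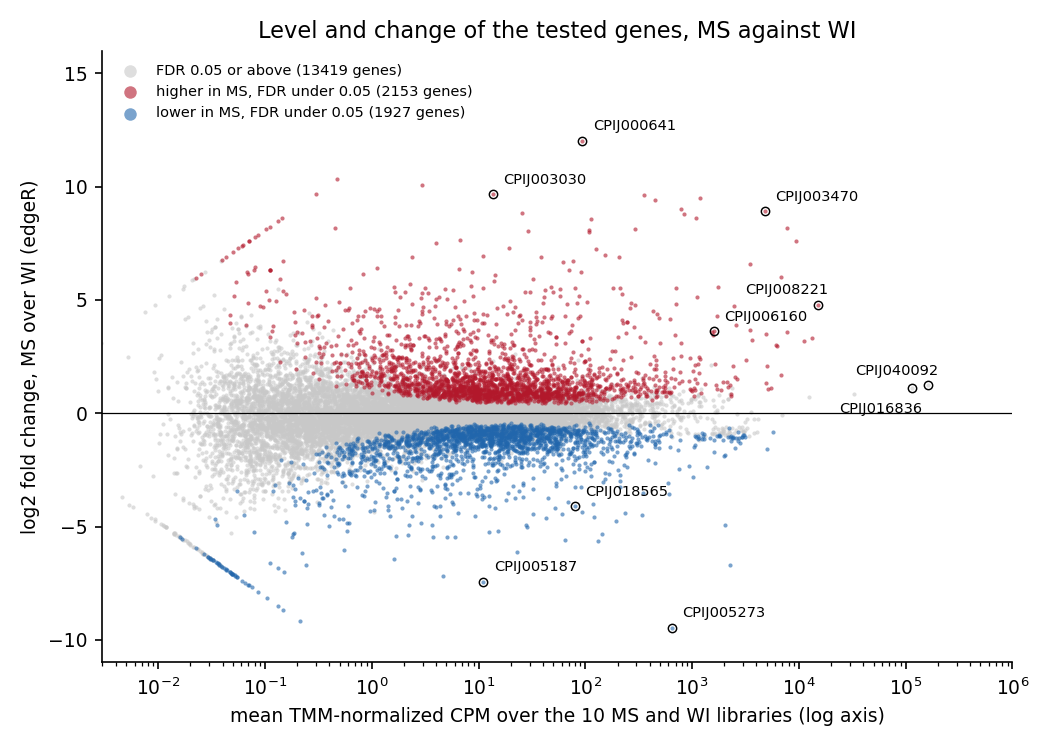
Log2 fold change of MS over WI (edgeR) against the mean CPM over the 10 MS and WI libraries (log axis) for the 17499 tested genes, one point per gene, with 2153 up-regulated and 1927 down-regulated genes at an FDR under 0.05 in colour. Circles mark 10 genes named in the text, with the largest rise at 12.04 (CPIJ000641) and the largest fall at -9.47 (CPIJ005273).

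The largest changes among DEGs without overlap and with a mean of at least 1 CPM were close to the presence or absence of a transcript. CPIJ000641, which has no annotation in the sources used here, was at 57.3, 134, 272, 216 and 260 CPM in the MS libraries, against 0.0885, 0, 0, 0.123 and 0 CPM in the WI libraries (log2 fold change 12.04, SE 1.31, FDR = 7.10e-07, edgeR). CPIJ003030, annotated as a structural constituent of cuticle, was at 21.2 to 34.2 CPM in MS and at 0 to 0.111 CPM in WI (log2 fold change 9.66, SE 1.10, FDR = 4.33e-06, edgeR). The largest fall was that of CPIJ005273, annotated as a peptidase, with 0.893, 0.0239, 0.110, 7.62 and 0.394 CPM in MS libraries and 377, 264, 2430, 1660 and 1710 CPM in WI libraries (log2 fold change -9.47, SE 1.53, FDR = 9.14e-05, edgeR). Its levels spread widely within each group, and even the highest MS library was below the lowest WI library. CPIJ005187, annotated as a monooxygenase, was at 0.244, 0.192, 0.0169, 0.126 and 0.0481 CPM in MS and at 25.8, 35.8, 17.5, 12.3 and 18.5 CPM in WI (log2 fold change -7.43, SE 0.71, FDR = 1.19e-07, edgeR). In MR females it was at 5.49 CPM ± 3.86 (SD, n = 5), between the means of MS and WI.

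At the extreme, 3 genes had no count in any MS library and at least 10 in each WI library, and 3 had the reverse, all of them named here after their values were seen. CPIJ018007 (26 to 72 counts in WI), CPIJ015005 (10 to 131 counts in WI) and CPIJ008525 (11 to 27 counts in WI) were at least 58.4-fold, 84.0-fold and 19.3-fold lower in MS, against a floor of 3 counts over the MS group that covers counting error only. CPIJ012415 had 57 to 216 counts in MS libraries and was at least 280-fold higher than in WI, CPIJ013027 (20 to 52 counts) at least 84.3-fold and CPIJ013760 (15 to 40 counts) at least 60.8-fold, against the same floor over the WI group. No function is annotated for these 6 genes in the sources used here.

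Among genes with very high counts, CPIJ008221 (chosen after its values were seen, no annotation) was at 19600, 30200, 30900, 33600 and 29800 CPM in MS and at 643, 1640, 746, 1340 and 847 CPM in WI (log2 fold change 4.79, SE 0.44, FDR = 8.01e-08, edgeR). CPIJ003470, chosen in the same way, was at 5310 to 10900 CPM in MS and at 11.1 to 33.3 CPM in WI (log2 fold change 8.90, SE 0.50, FDR = 2.00e-10, edgeR). For both genes the lowest MS library was that of replicate 1. The most counted gene of all, CPIJ040092, had 66000, 384000, 214000, 231000 and 241000 CPM in MS and 45700, 144000, 62300, 108000 and 123000 CPM in WI, ranges that overlap, and it was not called (log2 fold change 1.23, SE 0.46, FDR = 0.0590, edgeR). This rests on the setting, since it was called with edgeR's exact test (FDR = 0.0249) and likelihood ratio test (FDR = 0.0235), with DESeq2 (FDR = 0.0146), in a fit of the 10 libraries alone (FDR = 0.0458, edgeR) and under a block for the replicate number (FDR = 6.79e-04, edgeR). It was also called without MS replicate 1 (FDR = 0.0209, edgeR), without WI replicate 2 (FDR = 0.0490, edgeR) and without both (FDR = 0.0174, edgeR).

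Gene groups were formed from annotation terms in the study's tables, which hold only genes that the study called between MR and MS or between WI and CO. Every list therefore consists of genes chosen on libraries that this comparison shares, and for a list drawn from the MR and MS contrast neither its count nor its direction is independent evidence. Drawn wholly from that contrast were the lists of cuticle structure, chitin binding, muscle fibre, and the proteasome and signalosome. The same holds for ribosome biogenesis, RNA methylation, RNA helicases, transfer RNA processing, antioxidant enzymes and sphingolipids. The counts can be set beside the 12.3% up-regulated and 11% down-regulated of all genes and their median of -0.07 (log2) only as a description.

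Genes of the cuticle, the chitin and protein cover of the body, stood highest in MS. Of 34 genes for structural constituents of cuticle, 34 were up-regulated and none down-regulated, with a median log2 fold change of 4.84 and a range from 1.79 to 9.66, and no MS library overlapped with WI for any of them. Up-regulated members numbered 32 when libraries were scaled by size alone. Summed over these genes, the level was 14340, 14080, 16970, 20380 and 18550 CPM in the MS libraries, against 340.9, 691.4, 642.5, 602.7 and 470.9 CPM in the WI libraries. It lay between 2458 and 7909 CPM in MR, also above every WI library, and between 281.6 and 856.6 CPM in CO. CPIJ013785 was at 438 to 999 CPM in MS and 0.0575 to 1.74 CPM in WI (log2 fold change 9.64, SE 1.15, FDR = 2.28e-06, edgeR). Of 19 chitin-binding genes, 17 were up-regulated and 1 was down-regulated, with a median of 3.63. CPIJ000680 had 211, 284, 231, 289 and 228 CPM in MS and 1.46, 1.42, 1.78, 1.80 and 1.78 CPM in WI, and CPIJ000679 averaged 139 ± 25.7 CPM in MS and 1.76 ± 0.502 CPM in WI (SD, n = 5 each). The chitin-binding gene that fell, CPIJ004536, had 402 to 809 CPM in MS and 975 to 2170 CPM in WI (log2 fold change -1.49, SE 0.31, FDR = 0.00109, edgeR), and with it the summed level of the chitin-binding list overlapped between the groups. CPIJ016255, annotated as a chitin synthase, the enzyme that builds the chitin chain, averaged 45.8 ± 7.36 CPM in MS and 2.34 ± 0.397 CPM in WI (SD, n = 5 each, FDR = 4.71e-08, edgeR).

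**Figure D2:**
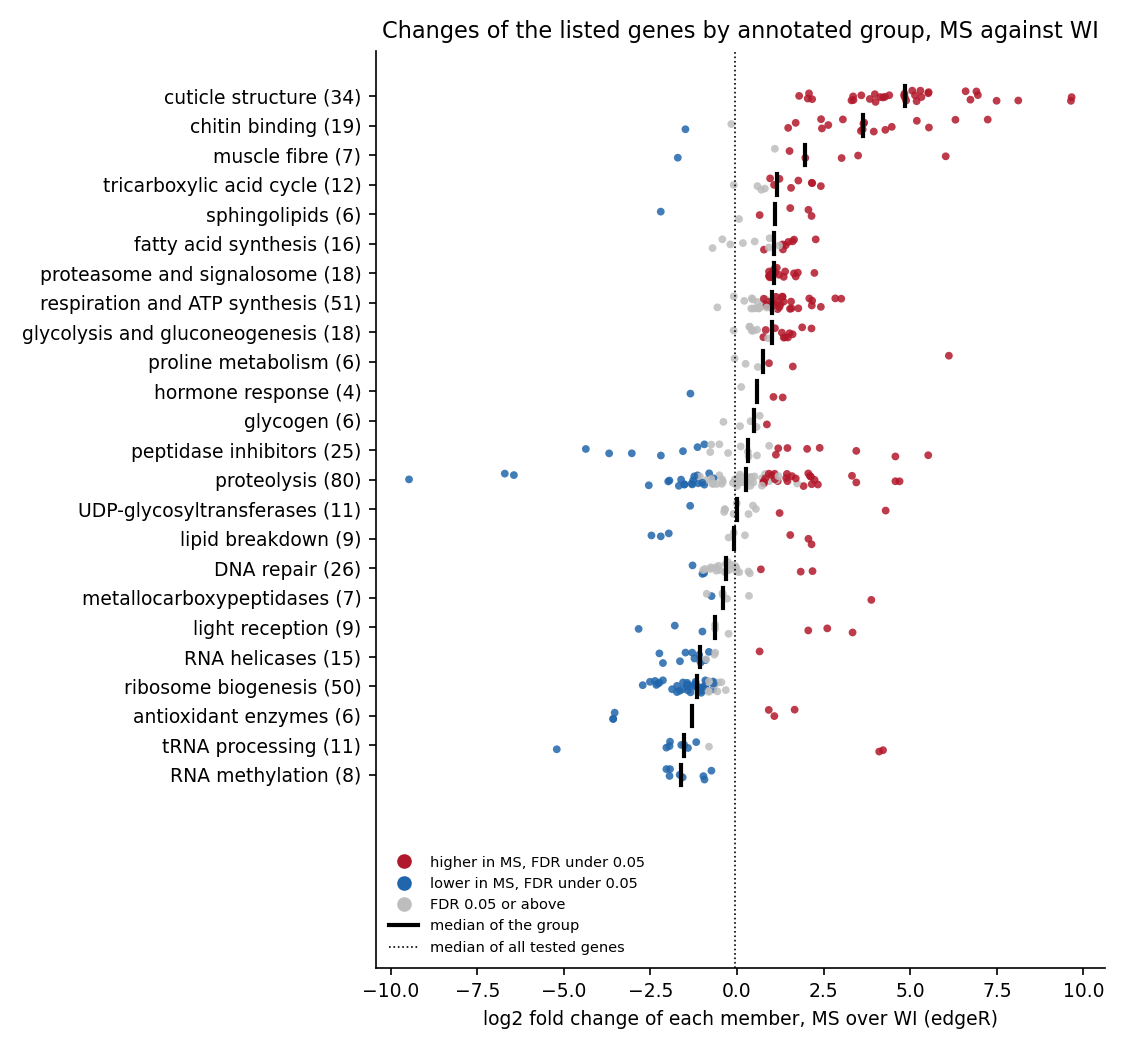
Log2 fold change of MS over WI (edgeR) of each member of 24 annotated gene groups, with the number of tested genes in brackets, coloured by call at an FDR under 0.05. Thick lines are group medians and the dotted line that of all genes tested (-0.07). All 34 cuticle genes lie to the right and all 50 ribosome biogenesis genes to the left, and CPIJ010521, which had no WI count, is left out of the peptidase inhibitor points.

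Contractile genes were also higher in MS. Of 7 muscle fibre genes, 5 were up-regulated and 1 was down-regulated (median 1.97), and their summed level was 36280, 44570, 40160, 36500 and 34700 CPM in MS and 5839, 9451, 4961, 6324 and 6515 CPM in WI. CPIJ000849, annotated to the myosin filament, the thick filament of muscle, was at 16600, 15500, 14700, 10500 and 10100 CPM in MS and at 277, 404, 114, 130 and 111 CPM in WI (log2 fold change 6.03, SE 0.80, FDR = 8.79e-06, edgeR). CPIJ009743, a myofibril gene, averaged 8950 ± 1343 CPM in MS and 794 ± 176 CPM in WI (SD, n = 5 each, FDR = 1.73e-07, edgeR). The exception was the actin filament binding gene CPIJ004628, with 508 to 1220 CPM in MS and 1710 to 3050 CPM in WI (log2 fold change -1.71, SE 0.35, FDR = 9.53e-04, edgeR). Genes of light reception divided evenly, with 3 of 9 up-regulated and 3 down-regulated. Among 5 listed for MR against MS 3 rose and 1 fell, and among 4 listed only for WI against CO 0 rose and 2 fell. CPIJ013056 (log2 fold change 3.34, SE 0.83) and CPIJ011576 (2.60, SE 0.49) rose, whereas CPIJ017734 (-2.84, SE 0.33) and CPIJ015481 (-1.80, SE 0.19) fell, each at an FDR of at most 0.00534 in edgeR. Whether the share of body parts in the RNA differed between groups was not tested.

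Genes that supply energy were mostly higher in MS, and none was down-regulated on the TMM scale. The tricarboxylic acid cycle, which oxidizes acetyl groups in mitochondria, had 8 of 12 genes up-regulated (median 1.15), glycolysis and gluconeogenesis 11 of 18 (median 1.00), and respiration and ATP synthesis 29 of 51 (median 1.00). With library size alone these counts were 5, 7 and 18 up-regulated with 1, 1 and 2 down-regulated, and the medians kept their sign. Among the 30 respiration genes that the study's tables give for WI against CO and not for MR against MS, a choice that involves both WI and MS libraries, 11 were up-regulated and 0 down-regulated with a median of 0.84. Of the 21 listed for MR against MS, 18 were up-regulated (median 1.31). For glycolysis these counts were 3 of 9 (median 0.58, about as large as the shift between scalings) and 8 of 9 (median 1.39). For the tricarboxylic acid cycle they were 1 of 3 (median 0.80) and 7 of 9 (median 1.56). CPIJ008366, a malate dehydrogenase gene, was at 1960, 3630, 2600, 2730 and 2620 CPM in MS and at 523, 846, 488, 616 and 534 CPM in WI (log2 fold change 2.17, SE 0.27, FDR = 3.92e-06, edgeR). CPIJ040862, annotated as an acyltransferase of the cycle, averaged 1605 ± 204 CPM in MS and 300 ± 97.7 CPM in WI (SD, n = 5 each). In glycolysis, CPIJ014577, a phosphotransferase mutase, averaged 1733 ± 499 CPM in MS and 391 ± 107 CPM in WI, and CPIJ002354, an isomerase of aldoses and ketoses, averaged 1613 ± 463 CPM in MS and 438 ± 121 CPM in WI (SD, n = 5 each). MS replicate 1 was the lowest MS library for both glycolytic genes and still exceeded all WI libraries. The respiratory chain genes CPIJ040085 and CPIJ040089 rose by log2 fold changes of 3.01 (SE 0.48) and 2.84 (SE 0.50), both at low levels and with FDRs of 7.20e-05 and 2.16e-04 in edgeR. The summed respiration level overlapped, at 73900 to 155000 CPM in MS and 44880 to 95510 CPM in WI.

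The proteasome degrades proteins tagged with ubiquitin, and the COP9 signalosome regulates the enzymes that attach the tag. All 18 listed genes of these complexes were up-regulated in MS, within a narrow range of log2 fold changes from 0.92 to 2.23 and with a median of 1.08, and 7 of them were up-regulated and none down-regulated with library size alone. The list was drawn from the MR and MS contrast, in which 17 of them were lower and 0 higher in MR in the present fit. Their direction was thus largely set by that choice. The summed level was 1417, 2046, 1387, 1585 and 1458 CPM in MS and 608, 745.2, 534.7, 635.1 and 641.2 CPM in WI. CPIJ012314, a signalosome gene, averaged 130 ± 44.1 CPM in MS and 27.7 ± 3.07 CPM in WI (SD, n = 5 each), and CPIJ009931, a proteasome gene, averaged 169 ± 34.3 CPM in MS and 49.9 ± 12.5 CPM in WI (SD, n = 5 each, FDR = 1.46e-05, edgeR).

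Listed genes that build ribosomes and process RNA were lower in MS, the reverse of the energy and proteasome genes. These lists were drawn from the MR and MS contrast. In the present fit, 42 ribosome biogenesis genes were up-regulated and 0 down-regulated in MR against MS. A low level in MS was thus largely set by that choice. Of 50 ribosome biogenesis genes, which act in the nucleolus on ribosomal RNA, 39 were down-regulated and none up-regulated, with a median log2 fold change of -1.16 and a range from -2.72 to -0.32. With library size alone 46 were down-regulated. The summed level was 1576, 1372, 1421, 1533 and 1427 CPM in MS and 5077, 6262, 5753, 6282 and 8517 CPM in WI, with no overlap. CPIJ004969, annotated to the maturation of 5.8S and large subunit ribosomal RNA, was at 63.1, 48.2, 56.7, 56.2 and 53.8 CPM in MS and at 277, 371, 323, 347 and 515 CPM in WI (log2 fold change -2.72, SE 0.21, FDR = 6.87e-09, edgeR). CPIJ004960, a nucleolar gene, averaged 60.2 ± 9.19 CPM in MS and 344 ± 88.4 CPM in WI (SD, n = 5 each). All 8 RNA methylation genes fell (median -1.61), as did 10 of 15 RNA helicase genes (median -1.07), while the helicase CPIJ001253 rose slightly (log2 fold change 0.65, SE 0.22, FDR = 0.0389, edgeR) but was not called with library size alone or without any one of MS replicates 2 to 4 or WI replicates 1 to 4 (FDR = 0.714 with library size alone and 0.0502 to 0.0993 without a library, edgeR). CPIJ007050, an RNA methyltransferase gene of transfer RNA processing, averaged 10 ± 1.54 CPM in MS and 41.3 ± 6.88 CPM in WI, and CPIJ011444 averaged 3.20 ± 0.660 CPM in MS and 12.3 ± 1.59 CPM in WI (SD, n = 5 each). Among helicases, CPIJ008599 fell with a log2 fold change of -2.24 (SE 0.28) and CPIJ001246 with one of -2.14 (SE 0.23). The nucleolar antigen p120 gene CPIJ010674 averaged 14.5 ± 4.51 CPM in MS and 43.0 ± 13.9 CPM in WI (SD, n = 5 each, FDR = 6.40e-04, edgeR).

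Transfer RNA processing was divided. Of 11 genes, 8 were down-regulated and 2 up-regulated (median -1.53), but the 2 that rose carried the sum, which was 309.7 to 663.5 CPM in MS and 148.2 to 200.8 CPM in WI. These were CPIJ002088, at 209, 489, 490, 499 and 379 CPM in MS and 14, 23.6, 19.3, 33.4 and 29.9 CPM in WI (log2 fold change 4.10, SE 0.38), and the pseudouridine synthase gene CPIJ011446, at 58.5 to 127 CPM in MS and 4.56 to 5.51 CPM in WI (4.22, SE 0.37). The largest fall was that of CPIJ018858, with 0.245 to 1.14 CPM in MS and 14.1 to 40.9 CPM in WI (-5.20, SE 0.64), whose mean in MR females, 22.3 CPM ± 11.9 (SD, n = 5), lay between the means of 0.799 CPM in MS and 29.5 CPM in WI.

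**Figure D3:**
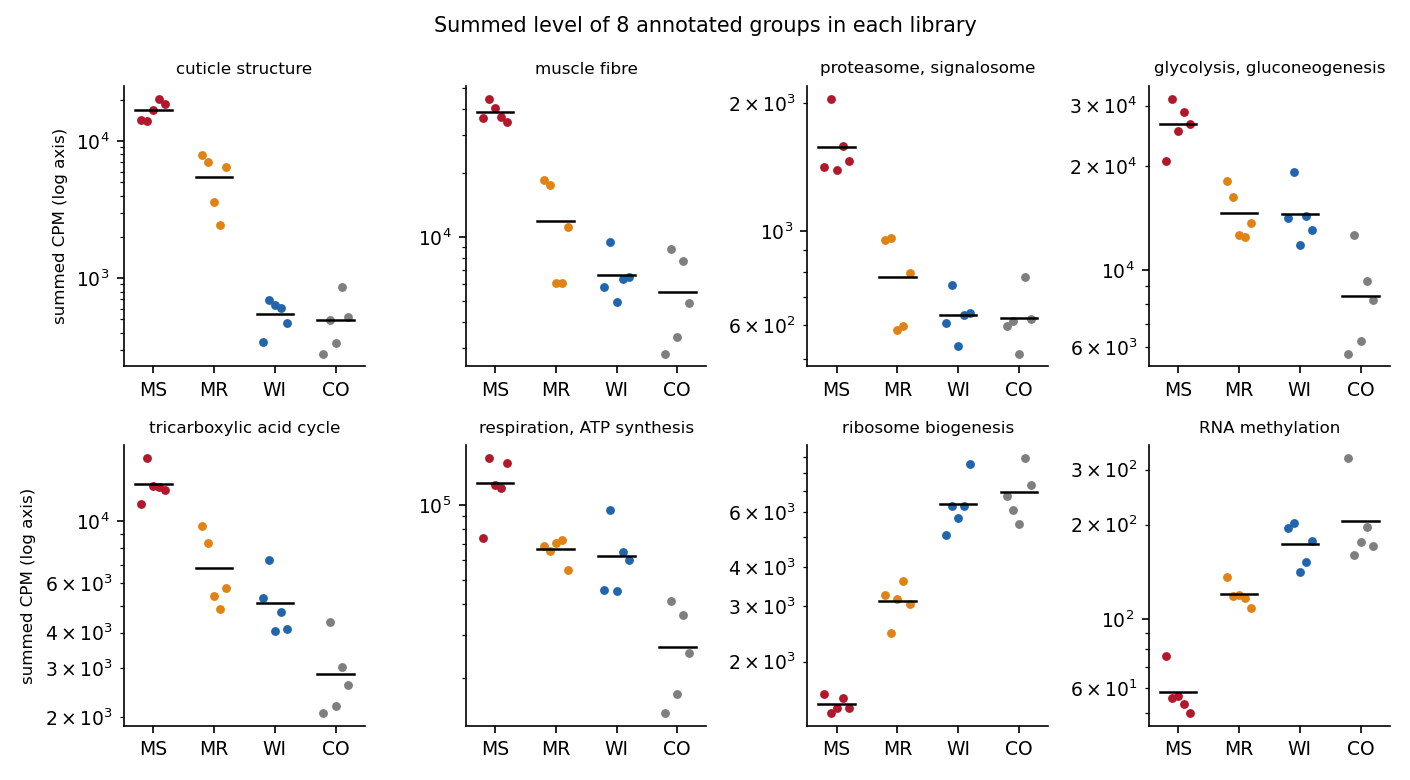
Summed TMM-normalized CPM (log axis) of 8 annotated gene groups in each of the 20 libraries, one point per library, with a line at the mean of each group (n = 5). The 5 MS libraries lie above all WI libraries for cuticle structure, muscle fibre, proteasome and signalosome, glycolysis and the tricarboxylic acid cycle, and below them for ribosome biogenesis and RNA methylation.

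The study's tables of detoxification genes hold only genes that it called between WI and CO or between MR and MS, on libraries shared here. A higher share of DEGs among them than over all genes is therefore no independent evidence. The tables name 94 distinct genes, of which all 94 were tested and 47 were DEGs between MS and WI, beside 23.3% of all genes. Of these 17 were up-regulated and 30 down-regulated. Among the 52 genes listed only for WI against CO, 5 were up-regulated and 10 down-regulated, and among the 42 listed for MR against MS, 12 and 20. The excess over the share of all genes thus lay mostly in the genes chosen on MR and MS. The listed P450s, heme enzymes that oxidize xenobiotics and hormones, fell more often than they rose. Of 60 listed P450s, 9 were up-regulated and 23 down-regulated, with a median log2 fold change of -0.52 (-1.04 with library size alone). Over all genes 12.3% were up-regulated and 11% down-regulated, shares that also stand beside the family counts below. Of 12 listed GSTs, 3 were up-regulated and 1 down-regulated, and of 8 listed carboxylesterases 2 were up-regulated and 3 down-regulated. Both medians (0.41 and 0.39) changed sign with library size alone (-0.10 and -0.13). Reads of close copies within these families may have been counted for the wrong copy, so single members are uncertain to that extent.

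**Figure D4:**
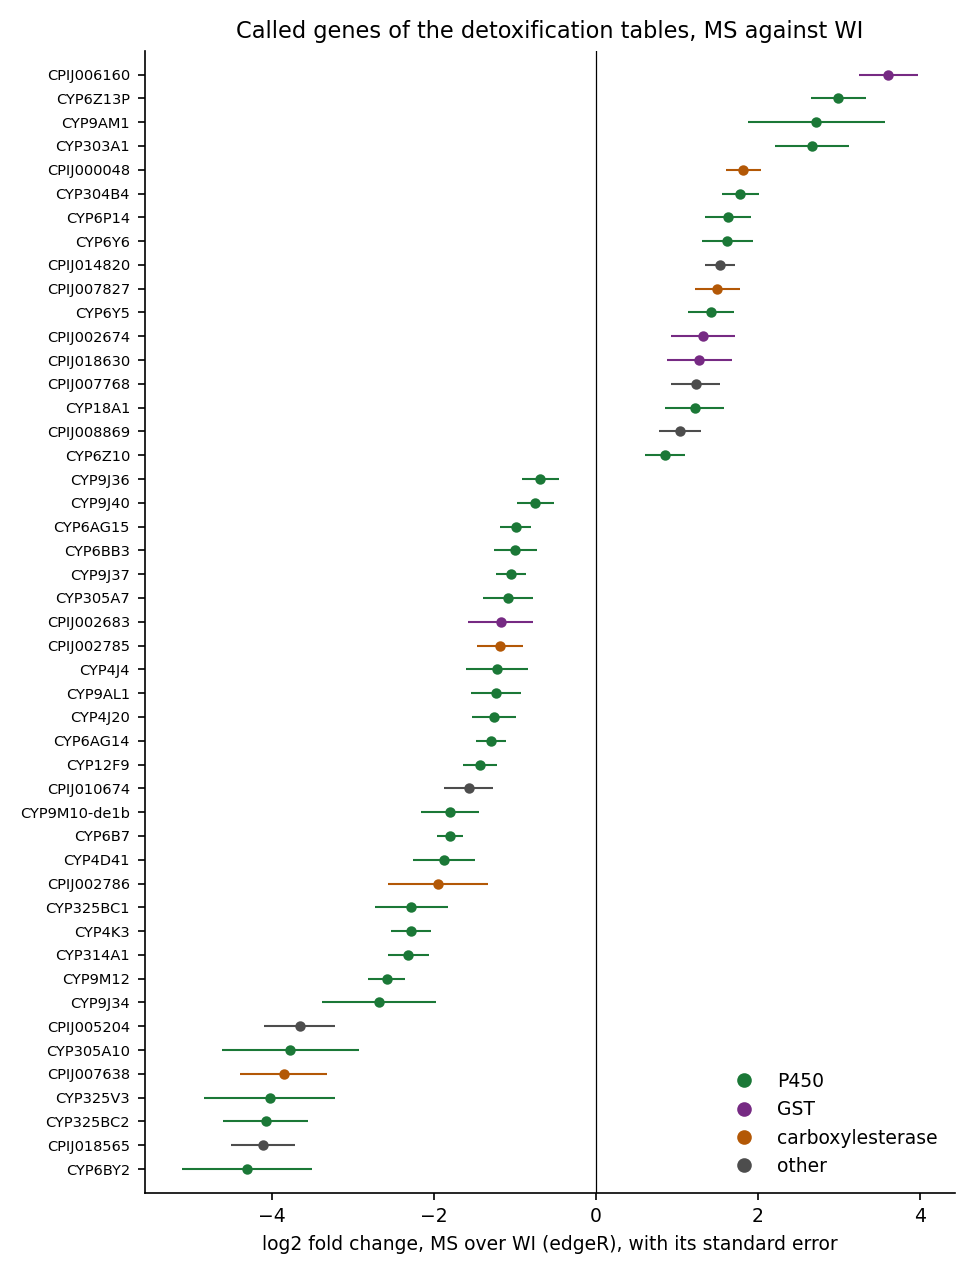
Log2 fold change of MS over WI (edgeR) with its standard error for the 47 called genes of the detoxification tables, coloured by family. The 17 up-regulated genes are led by the GST CPIJ006160 at 3.61 and the 30 down-regulated ones reach -4.30 at *CYP6BY2*.

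The GST CPIJ006160 had the largest rise of the 94 genes. It was at 2080, 3560, 2950, 3390 and 2860 CPM in the MS libraries, against 211, 258, 238, 248 and 260 CPM in the WI libraries (log2 fold change 3.61, SE 0.36, FDR = 2.69e-07, edgeR). It averaged 769 ± 418 CPM (SD, n = 5) in MR females, between MS and WI. This single gene carried most of the summed GST level, which was 2198 to 3731 CPM in MS and 308.7 to 427.6 CPM in WI. The GSTs CPIJ018630 (log2 fold change 1.28, SE 0.40, FDR = 0.0245, edgeR) and CPIJ002674 (1.32, SE 0.40, FDR = 0.0193, edgeR) also rose, and CPIJ002683 fell (-1.17, SE 0.40, FDR = 0.0388, edgeR). The calls of CPIJ018630 and CPIJ002674 were lost with library size alone (FDR = 0.108 and 0.156, edgeR). The first was also lost without WI replicate 1 or 4 (FDR = 0.0617 and 0.0531, edgeR) and the second without MS replicate 3 or WI replicate 2 (FDR = 0.0507 and 0.0508, edgeR). That of CPIJ002683 was lost when any of the libraries other than WI replicate 1 was left out (FDR = 0.0522 to 0.113, edgeR). CPIJ002663, at 4.97 to 5.73 CPM in MS and 2.11 to 4.79 CPM in WI, was not called (log2 fold change 0.81, SE 0.33, FDR = 0.0859, edgeR), although the libraries did not overlap. It was called in a fit of the 10 libraries alone (FDR = 0.0271, edgeR), under a block for the replicate number (FDR = 0.0079, edgeR) and without WI replicate 4 (FDR = 0.0437, edgeR).

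The genes for peptide methionine sulfoxide reductases, which repair oxidized methionine in proteins, were among the deepest falls. CPIJ018565 was at 6.30, 19.7, 5.68, 7.05 and 5.02 CPM in MS and at 149, 111, 97.3, 244 and 150 CPM in WI (log2 fold change -4.11, SE 0.39, FDR = 1.38e-07, edgeR). The msrA gene CPIJ005204 was at 1.93, 3.16, 0.549, 1.83 and 1.79 CPM in MS and at 28.7, 16.8, 14.9, 36.6 and 19.0 CPM in WI (log2 fold change -3.65, SE 0.44, FDR = 2.46e-06, edgeR). In MR females CPIJ018565 averaged 87.0 ± 14.4 CPM and CPIJ005204 averaged 20.6 ± 6.65 CPM (SD, n = 5 each), with no overlap with the MS libraries, and the study chose both genes by that contrast.

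**Figure D5:**
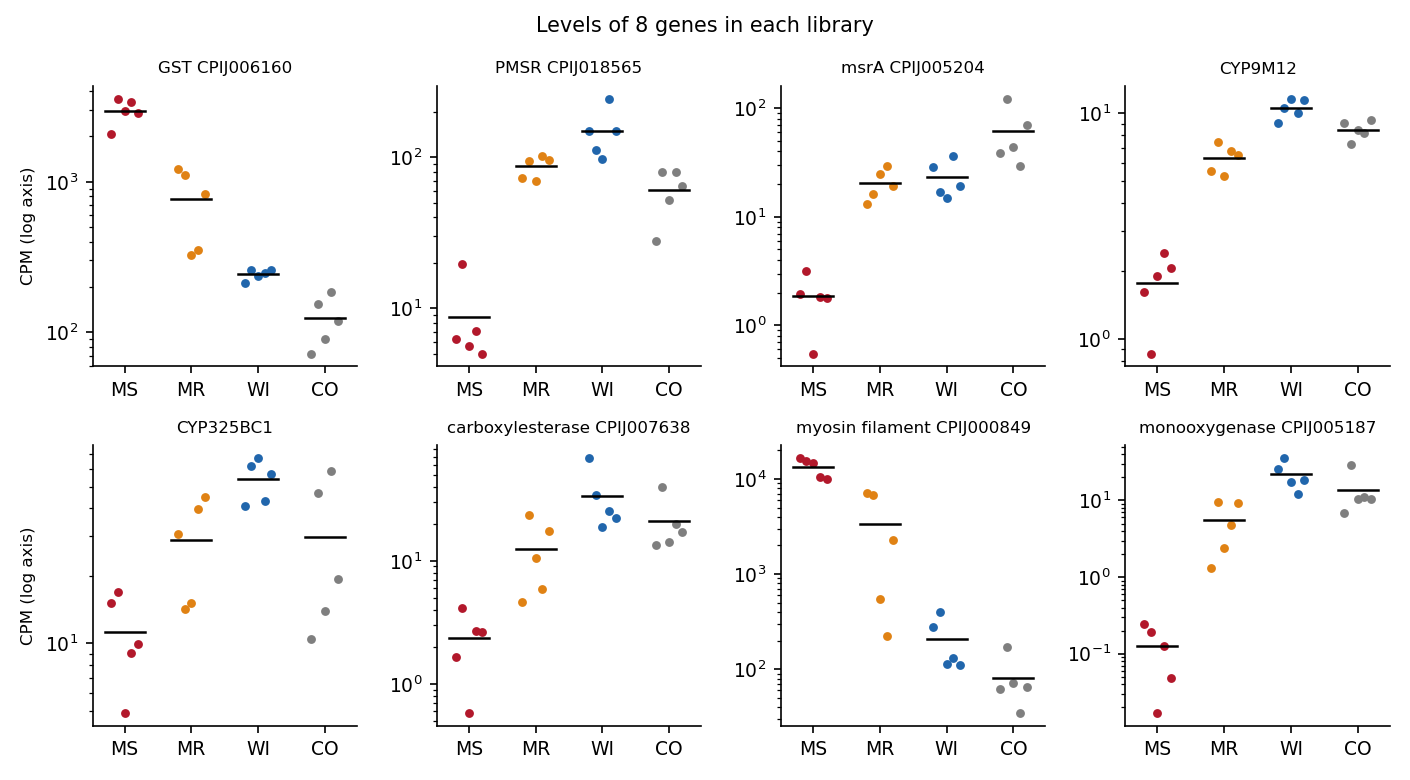
TMM-normalized CPM (log axis) of 8 genes in each library, one point per library, with a line at the mean of each group (n = 5). MS libraries lie above all WI libraries for the GST CPIJ006160 and the myosin filament gene and below all of them for the peptide methionine sulfoxide reductase (PMSR and msrA), P450, carboxylesterase and monooxygenase genes.

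Of the P450 families with at least 4 listed genes, CYP325 fell furthest, with 3 of 4 genes down-regulated and a median of -3.15. *CYP325BC1* (CPIJ015958) was at 15.1, 17.0, 4.90, 9.08 and 9.92 CPM in MS and at 40.8, 62.1, 67.1, 43.3 and 57.2 CPM in WI (log2 fold change -2.27, SE 0.45, FDR = 7.50e-04, edgeR). *CYP325BC2* (CPIJ010810) was at 0.244 to 0.707 CPM in MS and 4.19 to 16.4 CPM in WI (-4.07, SE 0.52), and *CYP325V3* (CPIJ011838) at 0 to 0.0900 CPM in MS and 0.161 to 0.765 CPM in WI (-4.02, SE 0.81). Of 14 listed genes of the CYP9 family 7 fell and 1 rose. *CYP9M12* (CPIJ014220) was at 1.61, 0.862, 1.91, 2.4 and 2.07 CPM in MS and at 9.09, 10.6, 11.6, 10 and 11.5 CPM in WI (log2 fold change -2.58, SE 0.23, FDR = 6.06e-08, edgeR), which left a wide gap between the groups. Its neighbour in the gene numbering, *CYP9M10-de1b* (CPIJ014219), averaged 0.535 ± 0.209 CPM in MS and 1.86 ± 0.686 CPM in WI (SD, n = 5 each), and *CYP9AL1* (CPIJ012470) averaged 39.3 ± 11.6 CPM in MS and 92.5 ± 28.3 CPM in WI (SD, n = 5 each). Of 8 listed *CYP9J* genes 4 fell and none rose, from *CYP9J34* (-2.67, SE 0.70) and *CYP9J37* (-1.05, SE 0.19) to *CYP9J40* (-0.75, SE 0.23) and *CYP9J36* (-0.68, SE 0.23). The FDR of *CYP9J36* was 0.0352 in edgeR and that of *CYP9J40* 0.0222, and the calls were lost without any of the libraries other than WI replicates 1 and 2 for *CYP9J36* (FDR = 0.0515 to 0.0955, edgeR) and without MS replicate 3, MS replicate 5 or WI replicate 5 for *CYP9J40* (FDR = 0.0559 to 0.0777, edgeR). The gene that rose, *CYP9AM1* (2.72, SE 0.84, FDR = 0.0230, edgeR), overlapped between the groups at 0.251 to 3.19 CPM in MS and 0 to 0.315 CPM in WI, and was not called with library size alone (FDR = 0.0666, edgeR), under a block for the replicate number (FDR = 0.0583, edgeR) or without MS replicate 4 or WI replicate 4 (FDR = 0.118 and 0.0554, edgeR).

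Listed genes of the CYP6 family moved both ways, with 5 of 18 up-regulated and 5 down-regulated. *CYP6BY2* was close to absent in MS, at 0.0964, 0.323, 0, 0.0629 and 0 CPM in MS and 1.40, 2.01, 1.68, 1.48 and 2.63 CPM in WI (log2 fold change -4.30, SE 0.81, FDR = 4.53e-04, edgeR). *CYP6B7* averaged 24.7 ± 2.33 CPM in MS and 86.0 ± 10.2 CPM in WI (SD, n = 5 each), and *CYP6AG14*, *CYP6AG15* and *CYP6BB3* fell with log2 fold changes of -1.3 (SE 0.18), -0.99 (SE 0.19) and -0.99 (SE 0.27). Those that rose were *CYP6Z13P* at 2.51 to 5.22 CPM in MS and 0.278 to 0.721 CPM in WI (2.99, SE 0.34), *CYP6P14* at 42.1 to 106 CPM in MS and 15.8 to 25.3 CPM in WI (1.63, SE 0.28), *CYP6Y6* (1.62, SE 0.32), *CYP6Y5* (1.42, SE 0.28) and *CYP6Z10* (0.85, SE 0.24), whose call was lost with library size alone (FDR = 0.441, edgeR). Of 9 listed genes of the CYP4 family 4 fell and none rose. *CYP4K3* averaged 7.09 ± 1.97 CPM in MS and 34.4 ± 8.5 CPM in WI, *CYP4D41* 2.08 ± 0.596 CPM in MS and 7.63 ± 3.35 CPM in WI, and *CYP4J20* 4.44 ± 0.969 CPM in MS and 10.6 ± 2.69 CPM in WI (SD, n = 5 each), while *CYP4J4* fell by 1.22 on the log2 scale (SE 0.38). *CYP12F9* averaged 5.29 ± 1.21 CPM in MS and 14.2 ± 1.55 CPM in WI (SD, n = 5 each), and *CYP305A10* and *CYP305A7* fell with log2 fold changes of -3.77 (SE 0.84) and -1.08 (SE 0.31). *CYP303A1*, known in *Drosophila* for its part in sensory bristles, averaged 14.5 ± 5.79 CPM in MS and 2.28 ± 1.31 CPM in WI, and *CYP304B4* averaged 32.5 ± 4.67 CPM in MS and 9.44 ± 1.99 CPM in WI (SD, n = 5 each).

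Calls lost without 1 library were also those of *CYP4J4* (MS replicate 2 or 5 or WI replicate 4, FDR = 0.0521 to 0.0734, edgeR) and *CYP305A7* (MS replicate 4, FDR = 0.0504, edgeR).

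P450s of hormone metabolism differed among themselves. *CYP314A1*, which converts ecdysone to its active form, was at 1.21, 0.934, 1.24, 1.03 and 1.85 CPM in MS and at 5.10, 7.84, 4.86, 8.47 and 4.83 CPM in WI (log2 fold change -2.31, SE 0.26, FDR = 8.98e-07, edgeR). *CYP18A1*, which inactivates the hormone in *Drosophila*, averaged 3.52 ± 1.09 CPM in MS and 1.51 ± 0.632 CPM in WI (SD, n = 5 each) and was called (log2 fold change 1.22, SE 0.37, FDR = 0.0193, edgeR), a call lost with library size alone (FDR = 0.360, edgeR) and without WI replicate 5 (FDR = 0.0512, edgeR). *CYP302A1* (-0.56, SE 0.25, FDR = 0.108, edgeR) and *CYP307A1* (-1.57, SE 0.66, FDR = 0.0912, edgeR), which act earlier in ecdysteroid synthesis in *Drosophila*, and *CYP15B1* (-0.70, SE 0.43, FDR = 0.265, edgeR), an epoxidase of juvenile hormone synthesis, did not pass the threshold. With library size alone all of them passed (*CYP307A1* FDR = 0.0377, *CYP302A1* FDR = 0.00609, *CYP15B1* FDR = 0.0417, edgeR). *CYP307A1* was also called with DESeq2 (FDR = 0.0462), without MS replicate 5 (FDR = 0.00888, edgeR) and under a block for the replicate number (FDR = 0.0499, edgeR), and *CYP302A1* with that block (FDR = 0.0100, edgeR).

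The listed genes of carboxylesterases, the enzymes that hydrolyse malathion, also moved both ways. CPIJ007638, a carboxylesterase 3 precursor gene, was at 1.67, 4.17, 0.583, 2.7 and 2.63 CPM in MS and at 68.2, 34.1, 18.9, 25.5 and 22.4 CPM in WI (log2 fold change -3.85, SE 0.54, FDR = 1.67e-05, edgeR). CPIJ002785 averaged 9.22 ± 1.51 CPM in MS and 21.0 ± 3.61 CPM in WI (SD, n = 5 each), and its neighbour CPIJ002786 fell with overlapping libraries (log2 fold change -1.95, SE 0.62, FDR = 0.0258, edgeR), a call lost without MS replicate 2 or 5 or WI replicate 3 or 4 (FDR = 0.0536 to 0.0724, edgeR). CPIJ000048 rose, with 18.2, 20.4, 17.1, 26.1 and 22.7 CPM in MS and 6.20, 5.89, 5.79, 6.42 and 5.31 CPM in WI (log2 fold change 1.82, SE 0.22, FDR = 2.37e-06, edgeR), as did CPIJ007827, a carboxylesterase 2 precursor gene (1.5, SE 0.28). Other named genes that rose were the isoprenylcysteine methyltransferase CPIJ014820 (52.4 ± 5.37 CPM in MS and 18.1 ± 2.12 CPM in WI, SD, n = 5 each), the mitochondrial ATP synthase subunit s gene CPIJ007768 (log2 fold change 1.23, SE 0.30) and the homocysteine methyltransferase gene CPIJ008869 (1.03, SE 0.26), the last not called with library size alone (FDR = 0.184, edgeR).

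Antioxidant enzymes divided by gene, with 3 of 6 up-regulated and 3 down-regulated. The peroxidase gene CPIJ008014 was at 61.4, 64.0, 164, 64.2 and 118 CPM in MS and at 1490, 1390, 1030, 973 and 720 CPM in WI (log2 fold change -3.57, SE 0.39, FDR = 7.19e-07, edgeR), and CPIJ007710, a peroxidase gene with terms of egg formation, averaged 1.46 ± 0.947 CPM in MS and 17.5 ± 9.66 CPM in WI (SD, n = 5 each). CPIJ011296 averaged 694 ± 243 CPM in MS and 219 ± 50.5 CPM in WI, and CPIJ009679 averaged 108 ± 29.2 CPM in MS and 51.0 ± 12.7 CPM in WI (SD, n = 5 each).

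Some of the deepest falls were those of peptidase genes. Of 80 genes annotated to proteolysis, a list added after the values were seen, 25 were up-regulated and 20 down-regulated, with a median log2 fold change of 0.25 that turned to -0.28 with library size alone. The list is not one of peptidases only, since 8 of its genes are also among the peptidase inhibitors (3 up-regulated and 1 down-regulated) and 3 among the proteasome genes (3 up-regulated), and these are counted in both places. The peptidase gene CPIJ000835 was at 25.7, 12.7, 17.5, 138 and 23.3 CPM in MS and at 2010, 815, 6330, 7440 and 6000 CPM in WI (log2 fold change -6.70, SE 1.13, FDR = 1.50e-04, edgeR). In the opposite direction, the serine endopeptidase gene CPIJ001918 was at 3.91 to 8 CPM in MS and 0.106 to 0.481 CPM in WI (4.69, SE 0.58), and the metallocarboxypeptidase gene CPIJ018952 at 94.1 to 199 CPM in MS and 5.54 to 12.1 CPM in WI (3.88, SE 0.41). Of 25 peptidase inhibitor genes 9 rose and 7 fell, and the directions differed by source. Among 13 listed for MR against MS 8 rose and 3 fell (median 1.19). Among 12 listed only for WI against CO 1 rose and 4 fell (median -0.63). CPIJ006840 had 13.1, 9.55, 57.2, 20.4 and 6.55 CPM in MS and 0.119, 0.631, 0.610, 0.505 and 0.464 CPM in WI. CPIJ010521 had 0 to 47 counts in MS and none in WI, so its libraries overlapped. Its mean level in MS was 50.3-fold the floor of 3 counts over the WI group, which covers counting error only. CPIJ007021 had 1.39, 27.2, 10, 1.43 and 3.49 CPM in MS and 79.5, 204, 228, 155 and 228 CPM in WI (log2 fold change -4.36, SE 0.81, FDR = 3.88e-04, edgeR), and CPIJ007023, close to it in the numbering, fell by 3.69 on the log2 scale (SE 0.96).

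The gene of the ribosomal protein L8 (CPIJ000162), used by the study as the reference of its quantitative PCR, was at 1390, 2020, 1830, 2310 and 2120 CPM in MS and at 2060, 3280, 3170, 4100 and 4400 CPM in WI. Its libraries overlapped. The difference (log2 fold change -0.82, SE 0.29, FDR = 0.0457, edgeR) was negative under TMM, RLE factors and library size alone, and it passed the threshold by little. It missed the threshold with RLE factors (FDR = 0.0538, edgeR), with no low-count filter (FDR = 0.0538, edgeR), without the 2 most counted genes (FDR = 0.0582, edgeR) and without any of the libraries other than WI replicate 1 (FDR = 0.0639 to 0.112, edgeR). Without MS replicate 1 and WI replicate 2 it had an FDR of 0.128. A difference of this size was usual at its level. The 146 tested genes with a WI mean of 1000 to 5000 CPM had a median log2 fold change of -0.83. Of them 54.1% lay between -1.3 and -0.5, against 19.8% of all tested genes.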

How the data were processed

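RNA was extracted from pools of whole females, 5 pools per group, and sequenced from directional libraries. The labels call the replicates biological and the study's methods call them technical, so p-values measure only the spread between these pools. The deposited values are counts per gene made by the authors, not normalized. According to the submitters' notes and the study's methods, reads were trimmed with Trim Galore 0.6.4, aligned with a repeated pass of STAR 2.7.3a to the VectorBase genome CpipJ2.4, given read groups with Picard 2.20.1 and counted with featureCounts 1.6.0. GATK is also named. The sources used here do not give the strand and multi-mapping options, which leaves near-identical or overlapping genes uncertain.

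Of 19793 genes, 17499 passed the edgeR filter (minimum count of 10, minimum total of 15) over all 20 libraries. Counts were scaled by TMM and fitted with a mean per group in edgeR 4.0.16 (limma 3.58.1, R 4.3.3), and MS minus WI was tested by quasi-likelihood, all p-values being adjusted together after Benjamini and Hochberg to an FDR with a threshold of 0.05. The standard error is that implied by the F statistic, and TMM-scaled CPM were computed from the counts. Single values were compared by exact two-sided permutation, for which the smallest p with 5 against 5 is 0.00794, and every gene named as having no overlap reaches it. The absence of overlap by itself fixes that result, so it adds no support. Counts were also simulated with the depth of these libraries. Of genes changed there by a log2 fold change of 1, 21 of 100 were recovered. For changes of 2 and 3 it was 43 of 50 and 48 of 50. Far fewer genes were changed there than were called in these data, which made the FDR threshold harder to pass. The share of 2-fold changes missed here can therefore not be read from the simulation.

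Genes were named by rule: the called genes of the study's detoxification tables, and, called or not, its candidate genes, its reference gene and the hormone P450s, up to 2 of the largest rises and falls among the called members of each annotated list, the 2 largest rises and falls among called genes without overlap and with a mean of at least 1 CPM, and the 2 most counted genes. Genes outside it are said to have been chosen after their values were seen, as was the proteolysis list. The members and lists were chosen with earlier results of these data known. The identifiers matched no entry of the RefSeq table used here, so names and annotation terms come from the study's tables and no coordinates or sequences are given. Alternatives were RLE factors, library size alone, edgeR's exact and likelihood ratio tests, DESeq2 1.42.0, other filters, a fit of the 10 libraries alone, the replicate number as a block, omission of the 2 most counted genes and of each library in turn, and, added after the data were seen, omission of MS replicate 1 and WI replicate 2 together.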

Additional observations from a re-analysis of the deposited data

Results flagged for a closer look

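In 23 of 281 sets of 5 libraries tested, 1 library stood apart from the other libraries of its group, with a gap to the nearest of them larger than a fixed share (0.71) of the whole range. Chance gives about 1 in 20 such sets, and the sets are not independent. MS replicate 1 was the library apart in 10 of them. Its TMM factor was 1.08, against 0.563 to 0.704 in the other MS libraries (gap 0.726 of the range).

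On the log2 CPM scale MS replicate 1 was the lowest MS library for the glycolysis genes CPIJ014577 (gap 0.784 of the range) and CPIJ002354 (0.781), the abundant genes CPIJ003470 (0.915) and CPIJ008221 (0.777), the GST CPIJ018630 (0.836), *CYP9AL1* (CPIJ012470, 0.745) and the ATP synthase subunit s gene CPIJ007768 (0.773). It was the highest MS library for the nucleolar gene CPIJ004960 (0.818) and the helicase gene CPIJ008599 (0.780). In each of these genes except CPIJ018630 and CPIJ007768 it was still on the same side of all WI libraries as the other MS libraries.

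MS replicate 2 stood apart for the reductase gene CPIJ018565 (gap 0.752 of the range, highest), the proteasome gene CPIJ009931 (0.817, highest), the acyltransferase gene CPIJ040862 (0.735, highest) and the light reception gene CPIJ011576 (0.787, lowest). MS replicate 3 was lowest for CPIJ018858 (0.728) and *CYP6Z13P* (CPIJ019586, 0.775). Among WI libraries, replicate 1 was lowest for CPIJ006840 (0.811), CPIJ007023 (0.840) and CPIJ009679 (0.723), replicate 2 was lowest for *CYP6P14* (CPIJ005955, 0.765) and CPIJ007710 (0.712) and highest for CPIJ017875 (0.828), and replicate 5 was highest for *CYP12F9* (CPIJ010231, 0.780).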

How the results depend on the processing

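With TMM, 2153 genes were up-regulated and 1927 down-regulated. With library size alone there were 892 and 3752, because this scaling moves the median of all genes, and 69.1% of the DEGs were shared. The other settings without omission of a library gave 2113 to 2619 up-regulated and 1799 to 2516 down-regulated genes, apart from the replicate block. The numbers 1 to 5 are carried by both groups. Same-numbered libraries deviated together at correlations of 0.0228 to 0.274, against -0.189 to 0.132 for libraries of other numbers. Among MS libraries 3 of 5 correlated best with their own number. Libraries numbered 1 also had the lowest share of the 2 most counted genes in each group. The main fit holds no block because the study describes none, and whether the number marks a shared batch was not tested. With the replicate block, 3555 genes were up-regulated and 3256 down-regulated, and 67 of the 94 detoxification genes were called instead of 47. Leaving out 1 library gave 1816 to 2031 up-regulated genes, 1394 to 1805 down-regulated genes and 42 to 47 detoxification genes, and 78.5% to 88.0% of the DEGs were shared. Of 124 called genes in the rule or chosen afterwards, 102 kept their call in every setting and the others lost it in at least 1. No named call changed its direction. CPIJ008525, with few counts in WI, missed the threshold with the replicate block (FDR = 0.0614, edgeR) and had no adjusted p in DESeq2. Depth was similar in all libraries and limits only genes with few counts, whereas the biological coefficient of variation of 0.535 limits the detection of small changes.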

Other observations

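Some lipid and amino acid genes outside the groups above also differed. Of 16 fatty acid synthesis genes, listed by the study for WI against CO, 8 were up-regulated and none down-regulated on the TMM scale (median log2 fold change 1.08), against 5 and 2 with library size alone, led by CPIJ004097 with 2.27, although the summed levels overlapped at 2819 to 3405 CPM in MS and 2377 to 3959 CPM in WI. Of 6 proline metabolism genes from the same source 3 rose, among them CPIJ004400 with 6.12 and the pyrroline-5-carboxylate reductase gene CPIJ012704 with 1.61. Of 6 sphingolipid genes 4 rose and 1 fell, with the ceramidase genes CPIJ020137 (2.15) and CPIJ017133 (2.06) on one side and CPIJ012159 (-2.20) on the other. The phospholipase A2 gene CPIJ011154 had a log2 fold change of -2.47. Of 26 DNA repair genes 3 were up-regulated and 3 down-regulated, shares close to the 12.3% and 11% of all genes, and with library size alone 1 and 4 were. Of 6 glycogen genes only CPIJ006166 was called (0.86, FDR = 0.0196, edgeR), a call lost with library size alone and without WI replicate 3 or 4 (FDR = 0.0517 and 0.0550, edgeR).

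Of 3 genes with consecutive identifiers, 2 were higher and 1 was lower in MS. CPIJ017874 averaged 1573 CPM in MS and 3.00 CPM in WI, CPIJ017875 averaged 2349 CPM in MS and 3.26 CPM in WI, and CPIJ017873, directly before them, averaged 2.57 CPM in MS and 125 CPM in WI (n = 5 each). These genes were chosen after their values were seen and have no annotation in the sources used here. Over all genes, the next tested identifier was also up-regulated for 21.7% of the up-regulated genes and also down-regulated for 19.6% of the down-regulated ones, beside 12.3% and 11% of all tested genes.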
